A study of Sus scrofa with 21 samples.

Results

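The genes studied here were 7 transcription factors and cofactors of red cell formation, GATA1, KLF1, TAL1, NFE2, LMO2, ZFPM1 and BCL11A, together with EPOR, the receptor of erythropoietin. Their probes were taken by gene name from the annotation of a custom Agilent pig array. With letter case ignored, 10 of the 60306 probes that are not controls carried one of the names, and they covered 6 of the 8 genes. GATA1 and NFE2 were found only under lower case names, and no probe carried the name TAL1 or ZFPM1. Total RNA from whole blood was hybridized in one colour, with 1 array for each pig. The DD group held 10 pigs of the SLAdd minipig line, which is inbred and homozygous at the SLA locus, and the LW group held 11 Large White pigs. All were 60 days old and ate the same standard diet ad libitum, and 3 further arrays had been removed by the authors as outliers. The DD pigs came from 5 litters and the LW pigs from 6, with 2 siblings in every litter but 1. The DD pigs were of a single inbred herd, so that breed and herd cannot be told apart.

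Erythropoietin reaches the precursors of red cells through EPOR, which signals through the kinase JAK2 and the STAT5 factors. In the nucleus GATA1 works with its cofactor ZFPM1 and with a complex built by TAL1, LMO2 and LDB1 on the control elements of globin, heme and membrane genes. KLF1 switches on many of the same genes, NFE2 acts at the globin locus and in megakaryocytes, and BCL11A is a repressor known from fetal globin genes as well as from B cells and plasmacytoid dendritic cells. Circulating blood holds few precursors but many reticulocytes, which still carry RNA. In bulk RNA, fewer cells of a type and less RNA per cell cannot be told apart.

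The RefSeq annotation of the build Sscrofa11.1 places LMO2 at chr2:27033924-27055457, KLF1 at chr2:66144767-66148500 and EPOR at chr2:70063601-70068821. BCL11A lies at chr3:81195217-81296165, NFE2 at chr5:19494672-19501810 and GATA1 at chrX:42898431-42905939. The genes without a probe, ZFPM1 and TAL1, lie at chr6:1091158-1153972 and chr6:164282242-164297636. Each probe is 60 bases long. Below are, 5′ to 3′, a coding probe of KLF1 and one of EPOR, shown because neither was clearly above background in these pigs, and the GATA1 probe with its reverse complement, shown because its strand bears on the GATA1 values. No stretch is set in capitals, as no single motif carries the result.
KLF1 probe A_72_P102121: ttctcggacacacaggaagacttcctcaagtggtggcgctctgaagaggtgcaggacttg
EPOR probe A_72_P441474: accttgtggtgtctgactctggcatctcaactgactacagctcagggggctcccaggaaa
GATA1 probe O13836 as listed: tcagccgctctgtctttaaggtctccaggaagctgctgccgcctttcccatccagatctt
GATA1 probe O13836, reverse complement: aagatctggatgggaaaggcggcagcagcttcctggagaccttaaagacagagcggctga

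The labelled cRNA is antisense and pairs with probes of the sense strand. For GATA1 it is the reverse complement, not the listed strand, that reads as coding sequence. As listed, this probe would therefore not pair with the labelled cRNA of GATA1 mRNA, and what gave its signal was not tested. The GATA1 probe belongs to an older oligo set of 9532 probes on the array. Of these, 1848 shared at least 25 bases with an Agilent probe, 124 of them (6.71%) on the opposite strand only. The GATA1 and NFE2 probes shared no run of 20 bases with any other probe, and the strand of the NFE2 probe was not tested either.

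Array brightness was lower on average in DD pigs than in LW pigs. It is the 75th percentile of an array's processed scanner signal, on the log2 scale, and ranged from 6.56 to 8.49 in DD pigs and from 7.37 to 8.62 in LW pigs. Over chips 1, 2 and 3 the DD means were 7.95, 7.55 and 7.09 and the LW means 8.02, 8.31 and 8.36. The gap was widest on chip 3, for which the methods of the study name a technical bias. The share of probes well above background ranged from 44.7% to 63.8% over the arrays. HBB and AHSP, the beta globin gene and the chaperone of alpha globin, were well above background on all 21 arrays.

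Whether the red cell regulators differ between the breeds was asked with limma, in a model of breed and chip with a random effect of the sow. The unit is the authors' background corrected and quantile normalized log2 intensity, and a log2 fold change (FC) is DD minus LW. GATA1, KLF1, NFE2 and LMO2 were higher in DD pigs by 0.40 to 0.55 on the log2 scale, and BCL11A and EPOR did not pass the test. Thus 4 of the 6 measured genes had an adjusted p below 0.05 and none was lower, while 11.4% of the 34393 genes tested were called higher and 9.41% lower. The counts of the gene lists below are to be read against these shares. GATA1 is among the 4, though its probe is listed on the strand opposite to the coding sequence. The median log2 FC was 0.45 over the 6 genes and −0.04 over all genes. These p-values set the breed difference against the spread between pigs, with a correlation of siblings of −0.11 in the model. Without the sow in the model KLF1 (limma adjusted p = 0.0633) and LMO2 (0.0552) did not pass. All 6 genes were higher in DD pigs in the deposited values, but only NFE2 and LMO2 stayed above 0, at 0.01 each, in processed signals with no scaling between arrays, where the median of all genes was −0.62.

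**Figure D1:**
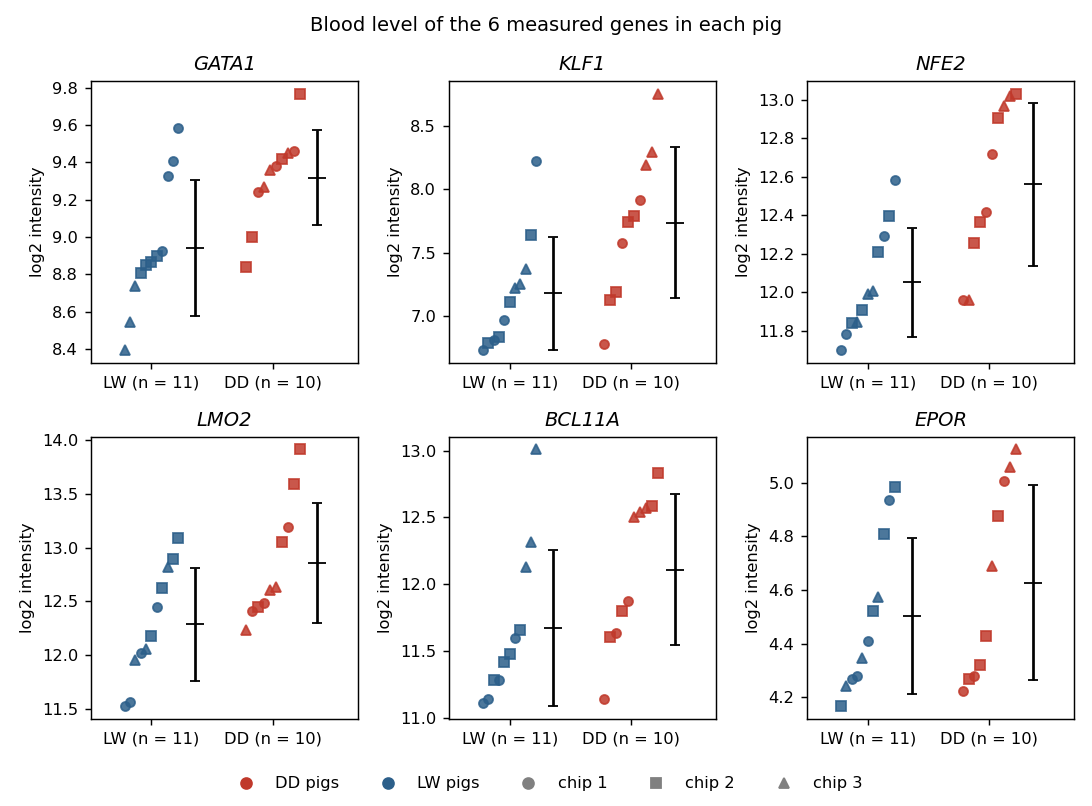
Log2 intensity of the 6 measured genes in each pig (y axis), with 11 LW pigs and 10 DD pigs side by side, the shape of a point for its chip, and the mean and SD as black bars. The breeds overlapped for every gene over all chips, while on chip 3 (triangles) the GATA1, KLF1 and EPOR points of the breeds did not.

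EPOR was at the edge of detection. Its probe A_72_P177781 was well above background in 2 of 10 DD pigs and 1 of 11 LW pigs, and probe A_72_P441474 in 1 and 3. As the mean of both probes, EPOR ran from 4.22 over a median of 4.56 to 5.12 in DD pigs. In LW pigs it ran from 4.17 over 4.41 to 4.99. The groups overlapped over most of their range, and 3 DD pigs lay above all LW pigs. On chip 3 alone the breeds did not overlap, with a difference of 0.57 against 0.03 on chip 1 and −0.15 on chip 2. The log2 FC of EPOR was 0.12 (SE 0.14, limma adjusted p = 0.584), with a 95% interval of −0.18 to 0.41. No difference was detectable at this signal.

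Of the 31 genes of EPOR signalling on the list used here, 24 were tested. CISH and TFR2 were higher in DD pigs, PIK3R1, CRKL and VAV1 were lower, and the median of the list was 0.02. Over all genes 11.4% were called higher and 9.41% lower. CISH, an inhibitor that STAT5 induces, was higher by 0.81 (SE 0.24, adjusted p = 0.0250 in limma). TFR2, a transferrin receptor that binds EPOR, had 0.59 (SE 0.17, limma adjusted p = 0.0216). The regulatory subunit gene of a phosphoinositide kinase, PIK3R1, had −0.76 (SE 0.25, limma adjusted p = 0.0367). JAK2 itself had a log2 FC of 0.03 with an adjusted p of 0.866, and STAT5A had −0.13 with 0.527. With array brightness as a covariate no gene of this list passed the threshold.

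GATA1, a zinc finger factor without which red cells do not mature, ran from 8.84 over a median of 9.37 to 9.77 in DD pigs. In LW pigs it ran from 8.39 over 8.87 to 9.58. These values come from the probe listed on the opposite strand, and whether they are GATA1 mRNA was not tested. The probe was well above background on all 21 arrays, and 9 of 10 DD pigs were above the LW median but only 1 was above all LW pigs. The means were 9.32 ± 0.26 (SD, n = 10) and 8.94 ± 0.36 (SD, n = 11), and the log2 FC of GATA1 was 0.40 with an SE of 0.12 (adjusted p = 0.0256 in limma), or 1.32-fold. Chip by chip DD pigs exceeded LW pigs by 0.05 (chip 1), 0.40 (chip 2) and 0.80 (chip 3). On chip 3 the 3 DD pigs lay between 9.27 and 9.45 and the 3 LW pigs between 8.39 and 8.74, without overlap, whereas the breeds overlapped on both other chips.

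LMO2, the LIM domain adaptor that bridges GATA1 and TAL1, ran from 12.23 over a median of 12.62 to 13.92 in DD pigs. In LW pigs it ran from 11.53 over 12.18 to 13.09. Every DD pig was above the LW median, and 3 were above all LW pigs. The means were 12.86 ± 0.56 (SD, n = 10) and 12.29 ± 0.53 (SD, n = 11). The log2 FC of LMO2 was 0.53 (SE 0.18, limma adjusted p = 0.0388), or 1.45-fold. Unlike GATA1, LMO2 differed most on chip 1, by 0.81, and by 0.56 on chip 2 and 0.22 on chip 3, and the breeds overlapped on each chip. This opposite order across chips is a description, since the breed by chip terms did not pass the test for any of the genes. A second probe that shares 57 bases with the LMO2 probe gave a log2 FC of 0.54, and the SD of the difference between both probes over the arrays was 0.13.

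TAL1, the helix-loop-helix partner of LMO2, is not analysed here, as no probe carried its name. For ZFPM1, the cofactor that binds GATA1, 1 probe of another name carries a ZFPM1 description. It was well above background on 0 of 21 arrays, so no difference is given.

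Of 31 listed partners of these complexes 26 were tested. Of these 3 were higher, 2 were lower and 21 did not pass, with a median log2 FC of −0.12. The counts are near the shares over all genes, of which 11.4% were called higher and 9.41% lower. GATA2, the related factor of progenitors, mast cells and basophils, had 0.71 (SE 0.20, limma adjusted p = 0.0217). GATA3, the related factor of T cells, had −0.75 (SE 0.19, limma adjusted p = 0.0131). MBD3, a subunit of a nucleosome remodelling complex, had 0.41 (SE 0.14, limma adjusted p = 0.0414). With array brightness as a covariate 0 of the 26 were called, and GATA2 had 0.12 (adjusted p = 0.947), GATA3 −0.39 (adjusted p = 0.586) and MBD3 0.04 (adjusted p = 0.988). T cell markers moved with GATA3, as 4 of the 12 tested were called lower in DD pigs and none higher. The mean log2 level of that list ran from 7.35 to 8.68 in DD pigs and from 7.88 to 8.75 in LW pigs, and its part in the GATA3 value was not tested.

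KLF1, the zinc finger factor that activates adult globin and membrane genes, had 3 probes. The coding probe A_72_P102121 was well above background on 0 of 21 arrays and was removed as dim. The other 2 probes were well above background on all arrays and their log2 FCs were 0.55 for A_72_P441179 (SE 0.21, adjusted p over probes = 0.0627 in limma) and 0.54 for O11579 (SE 0.19, adjusted p over probes = 0.0474). Of the 9 member probes in that fit 4 were called, those of GATA1, NFE2 and LMO2 and the KLF1 probe O11579, where 11% of the 45229 probes tested were called higher. The gene value, the mean of both bright KLF1 probes, ran from 6.78 over a median of 7.77 to 8.76 in DD pigs. In LW pigs KLF1 ran from 6.73 over 7.11 to 8.23. Of the 10 DD pigs, 9 were above the LW median and 2 above all LW pigs. The means were 7.74 ± 0.60 (SD, n = 10) and 7.18 ± 0.45 (SD, n = 11), and the log2 FC of KLF1 was 0.55 (SE 0.19, limma adjusted p = 0.0439), or 1.46-fold. Chip 1 gave a KLF1 difference of 0.24, chip 2 of 0.37 and chip 3 of 1.13. On chip 3 alone the KLF1 levels of the breeds did not overlap, with 8.19 to 8.76 in DD pigs and 7.22 to 7.37 in LW pigs.

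NFE2, the leucine zipper factor of red cells and megakaryocytes, had the most DD pigs above all LW pigs. It ran from 11.96 over a median of 12.57 to 13.03 in DD pigs. In LW pigs it ran from 11.70 over 11.99 to 12.58. Of the 10 DD pigs 5 were above all LW pigs, and 5 of the 11 LW pigs were below all DD pigs. The means were 12.56 ± 0.42 (SD, n = 10) and 12.05 ± 0.28 (SD, n = 11). The log2 FC of NFE2 was 0.50 (SE 0.15, limma adjusted p = 0.0268), or 1.42-fold, and the differences on the 3 chips were 0.28, 0.55 and 0.70. Since NFE2 and GATA1 are active in megakaryocytes too, the platelet markers are given beside them. Of the 9 tested, 1 was lower in DD pigs, the chemokine gene PPBP with a log2 FC of −0.94 (limma adjusted p = 0.0415), and none was higher. The share of all genes called lower was 9.41%. With array brightness as a covariate PPBP had −1.94 (adjusted p = 0.000369) and was again the gene called, and the median of the platelet list went from −0.15 to −0.52. The mean level of that list ran from 7.83 to 9.31 in DD pigs and from 8.20 to 9.59 in LW pigs, and its part in the NFE2 value was not tested.

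BCL11A, the repressor, did not pass the threshold. It ran from 11.14 over a median of 12.19 to 12.84 in DD pigs. In LW pigs it ran from 11.11 over 11.48 to 13.01. The highest pig of all, LW_22, was on chip 3, where LW pigs ran from 12.13 to 13.01 and DD pigs from 12.50 to 12.57. On chip 1 the highest LW pig was at 11.60 and the highest DD pig at 11.87. On chip 2 they were at 11.66 and 12.84. The log2 FC of BCL11A was 0.39 (SE 0.15, limma adjusted p = 0.0720), with a 95% interval of 0.07 to 0.70, and 0 of 10 DD pigs were above all LW pigs. For BCL11A chip 1 gave a difference of 0.27, chip 2 of 0.75 and chip 3 of 0.05. The gene value averages 2 probes that disagree. They overlap by 57 of 60 bases on the same strand. Yet A_72_P327223 was higher than O8132 by 4.95 on average on the log2 scale, and the SD of this difference over the arrays was 1.12. Pearson's r between both probes was 0.09 over the 21 arrays, so the gene value lies between unlike levels. On chips 1 and 2 A_72_P327223 ran from 12.99 to 15.17 and O8132 from 8.37 to 10.50. On chip 3 A_72_P327223 ran from 15.12 to 16.57 over both breeds, whereas O8132 ran from 9.03 to 9.70. The cause was not tested. A spot with the same sequence as probe A_72_P327223 differed from that probe with an SD of 0.06. Probe A_72_P327223 had a log2 FC of 0.49 and probe O8132 had 0.28, and neither passed the threshold. B cell markers, given because BCL11A is active in B cells, were called higher for 1 of 11 genes, VPREB3, with a log2 FC of 0.81, or 1.37 once brightness entered the fit. Without brightness in the fit 11.4% of all genes were called higher. The B cell list had a median of 0.11, and of 0.56 with that covariate. The mean level of the B cell list ran from 7.61 to 9.07 in DD pigs and from 7.68 to 9.23 in LW pigs. Among 7 plasmacytoid dendritic cell markers, IRF7 was higher and none was lower, but 0 were called with the covariate, and the part of either cell type in the BCL11A value was not tested.

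**Figure D2:**
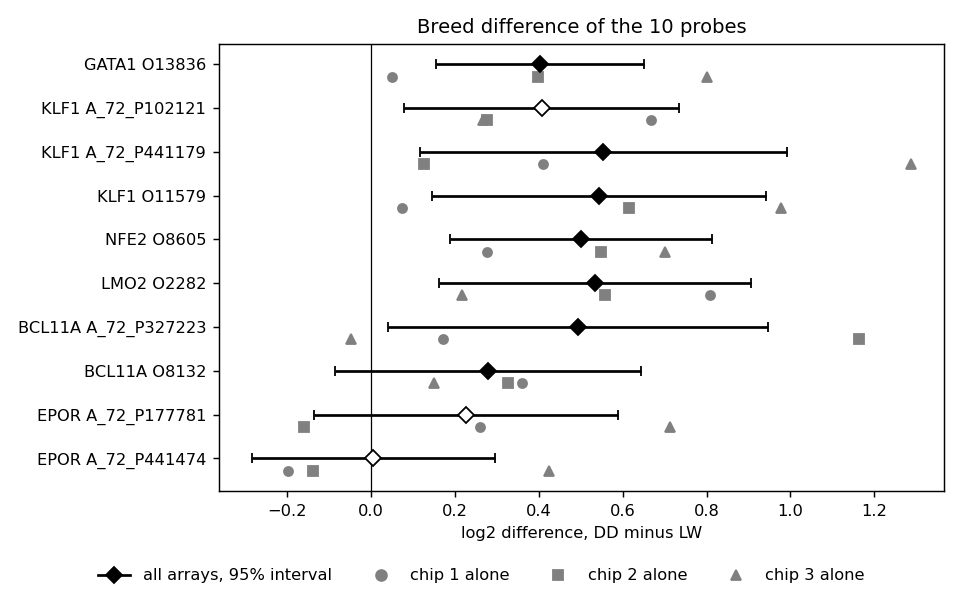
Log2 difference between DD and LW pigs (x axis) for each of the 10 probes, with its 95% interval over all arrays as a diamond and the difference within each chip in grey. Open diamonds mark the KLF1 probe and the EPOR probes that were not well above background on every array. The chip 3 value was the highest of the 3 chips for the GATA1 and NFE2 probes, both bright KLF1 probes and both EPOR probes, and the lowest for the other 4 probes.

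The breed by chip interaction was tested over all genes, because the differences varied between chips. It was called for 0 of the 6 genes and for 0% of all genes by limma, and 3837 of the 34393 genes had an unadjusted p below 0.05. None of the 6 did. Their unadjusted p ran from 0.0958 for GATA1 to 0.575 for NFE2. Without chip 3 the log2 FC was 0.21 for GATA1, 0.31 for KLF1, 0.44 for NFE2, 0.70 for LMO2, 0.57 for BCL11A and −0.04 for EPOR. Called without that chip were 0 of the 6 genes, where 0.666% of all genes were called higher. An unadjusted limma p below 0.05 was found there for 3 of the 6 and, in either direction, for 4219 of the 34393 genes.

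The gaps between siblings were of a size with the breed differences. After removal of the chip effect, the median difference between the 2 pigs of a litter was 0.46 for GATA1, 0.33 for KLF1, 0.39 for NFE2, 0.53 for LMO2, 0.42 for BCL11A and 0.13 for EPOR over 10 pairs. The largest sibling gap of KLF1 was 1.53, between the pigs LW_07 and LW_18. LW_07 was the highest LW pig for GATA1, KLF1 and NFE2, and its array was the dimmest of the LW arrays. In the same way DD_21, the highest DD pig for KLF1, had the dimmest array of all, and DD_06, the lowest DD pig for KLF1, had the brightest DD array.

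The relation between level and brightness was therefore computed over the 11 litter means, with the breed means subtracted and the chip effect removed. For KLF1 Pearson's r was −0.84 (exact permutation within breeds, two-sided p = 0.00359, adjusted over the 6 genes p = 0.0215) and Spearman's rho was −0.76 (p = 0.0140, adjusted p = 0.0421). For LMO2 the relation ran the other way, with r = 0.71 (exact permutation p = 0.0161, adjusted p = 0.0484) and rho = 0.78 (p = 0.0106, adjusted p = 0.0421). With the 2 litters of most extreme brightness left out, r was −0.77 for KLF1 and 0.69 for LMO2. For NFE2 r was −0.60 (exact permutation p = 0.0604) and rho −0.61 (p = 0.0652), and for EPOR r was −0.62 (p = 0.0638) and rho −0.55 (p = 0.122), with an adjusted p of 0.0957 for both values of r. GATA1 had r = −0.55 (exact permutation p = 0.0983, adjusted p = 0.118) and rho = −0.70 (p = 0.0280, adjusted p = 0.0561). BCL11A had r = −0.22 (exact permutation p = 0.648) and rho = 0.02 (p = 0.971). Within breeds KLF1 was thus lower and LMO2 higher on brighter arrays. Without the chip correction neither passed after adjustment, though r was −0.84 for KLF1 (exact permutation p = 0.00843, adjusted p = 0.0506) and 0.61 for LMO2 (p = 0.0333, adjusted p = 0.0813). Spearman's rho was then −0.65 for KLF1 and 0.55 for LMO2, with an adjusted p of 0.133 for both. These relations were computed for the 6 genes alone, so how common they are among all genes was not tested.

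**Figure D3:**
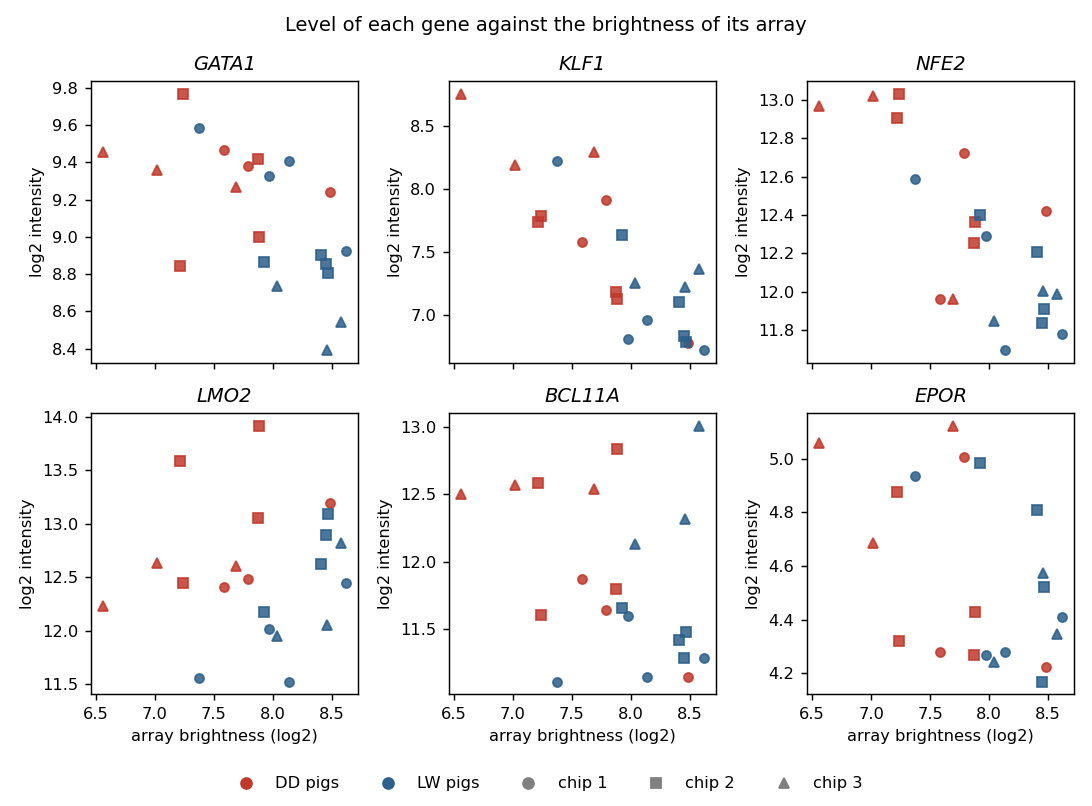
Log2 intensity of each gene (y axis) against array brightness (x axis), which is the 75th percentile of processed signal in log2 units, for the 21 arrays, with colour for breed and shape for chip. KLF1 fell along the axis in both breeds, while among LMO2 points of like brightness the DD pigs mostly lay above the LW pigs.

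With brightness as a further covariate in limma, LMO2 was the one gene called of the 6, where 0.957% of all genes were called higher. Its log2 FC became 0.97 (SE 0.19, adjusted p = 0.00626). That of KLF1 became −0.01 (SE 0.16, adjusted p = 0.998), with a 95% interval of −0.35 to 0.33. GATA1 had 0.14 (SE 0.13, adjusted p = 0.841) and NFE2 0.15 (SE 0.16, adjusted p = 0.895). BCL11A had 0.41 (SE 0.21, adjusted p = 0.484) and EPOR −0.10 (SE 0.17, adjusted p = 0.961). In a fit with the covariate and without chip 3, chosen after seeing the data, LMO2 had 1.03 (SE 0.22, adjusted p = 0.0336) and KLF1 −0.10 (SE 0.18, adjusted p = 0.947). Brightness and breed go together in these arrays, so their parts in the differences of the 6 genes, LMO2 included, cannot be told apart.

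**Figure D4:**
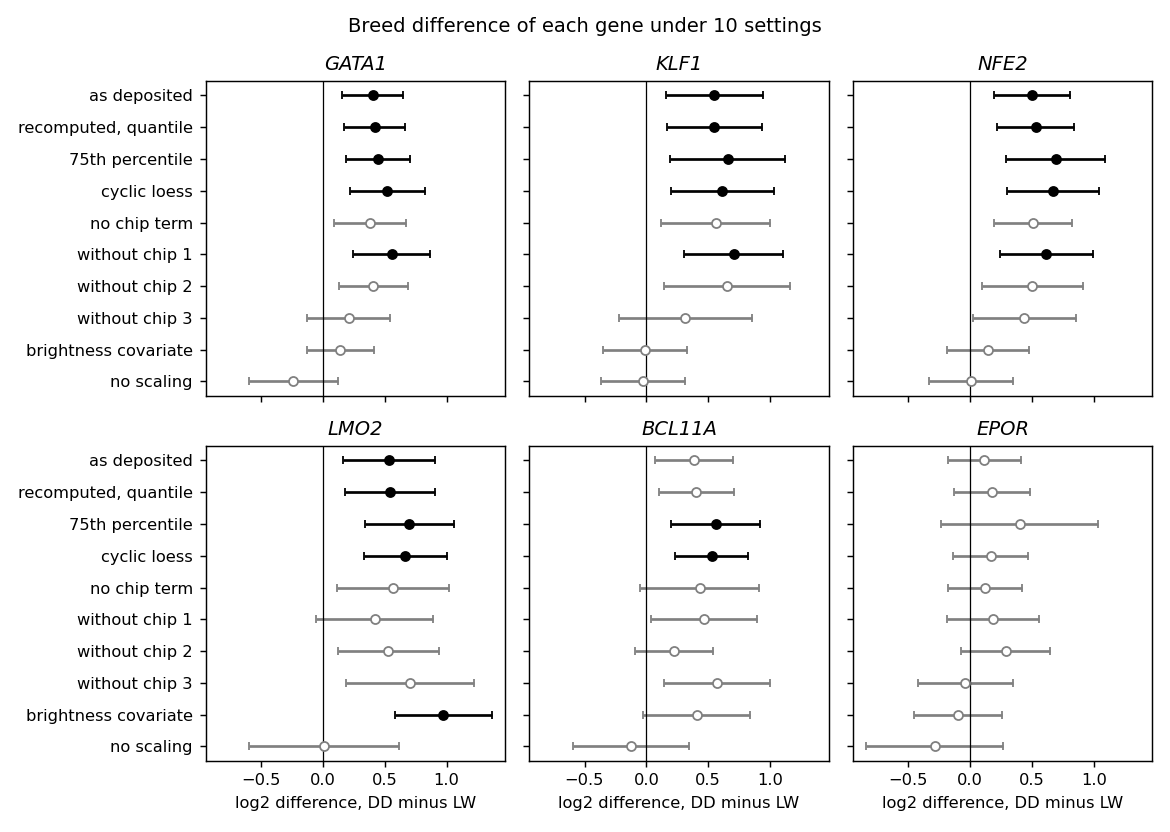
Log2 difference between DD and LW pigs (x axis) with its 95% interval for each gene under 10 settings (y axis), with filled black points where the adjusted p was below 0.05. LMO2 was the gene called with the brightness covariate, at 0.97, and no gene was called without chip 3 or without scaling between arrays.

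Whether the genes vary together among pigs of a breed was asked over the same 11 litter means, for 15 pairs. GATA1 and LMO2, which share a complex, had r = −0.82 (exact permutation p = 0.00464, adjusted over the 15 pairs p = 0.0540) and rho = −0.65 (p = 0.0454). KLF1 and EPOR had r = 0.81 (exact permutation p = 0.00720, adjusted p = 0.0540) and rho = 0.85 (p = 0.00395), although EPOR was near background. KLF1 and NFE2 had r = 0.67 (exact permutation p = 0.0322, adjusted p = 0.161) and rho = 0.66 (p = 0.0407). NFE2 and EPOR had r = 0.64 (exact permutation p = 0.0436, adjusted p = 0.163) and rho = 0.60 (p = 0.0701). Of the 15 pairs 0 passed after adjustment for r, and 4 had an unadjusted p below 0.05. For GATA1 and KLF1 r was 0.18 and rho 0.12 (exact permutation p = 0.625 and 0.749). Leaving out the 2 litters farthest from the median of the first gene gave r = −0.58 for GATA1 with LMO2 and 0.69 for KLF1 with EPOR. Over the same litter means r with array brightness was −0.55 for GATA1, 0.71 for LMO2, −0.84 for KLF1, −0.60 for NFE2 and −0.62 for EPOR. The part of brightness in these pairs was not tested.

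Among 5464 named genes of at least middling level, those whose pattern over the 21 arrays was most like a member's were found on values without breed and chip means. For KLF1 they were ADIPOR1 (r = 0.93), NDUFS1 (0.92) and SNRNP27 (0.92). For GATA1 they were HEG1 (0.94), F8 (0.93) and C1QTNF5 (0.92), and for NFE2 they were RAB3IL1 (0.86), CD82 (0.83) and ITSN1 (0.83). LMO2 was most like PTK2 (0.92), ARHGAP17 (0.89) and PUS7 (0.87), BCL11A like FAM131B (0.93), ATP13A2 (0.89) and COPS7A (0.87), and EPOR like EIF1 (0.87), HERPUD2 (0.86) and KPNA1 (0.85). These arrays share litters and brightness, and the values are descriptions. No gene was named for more than 1 of the 6. The genes most like KLF1 had log2 FCs of 0.43 to 0.70, while of those most like LMO2 PTK2 had 0.00 and PUS7 had −0.47.

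Other regulators of red cell genes were mixed. Of 26 listed, 19 were tested, with 4 higher, 2 lower and 13 that did not pass, and a median log2 FC of 0.15. SOX6, which works with BCL11A at the globin locus, had 1.51 (SE 0.35, limma adjusted p = 0.00885). GFI1B, a repressor induced in red cells and megakaryocytes, had 0.76 (SE 0.22, limma adjusted p = 0.0251). FOXO3, a factor of late red cell maturation, had 0.62 (SE 0.21, limma adjusted p = 0.0405). MYB, the factor of early progenitors that KLF1 opposes in time, had −0.97 with an adjusted p of 0.104. With the brightness covariate SOX6 had 0.98 (adjusted p = 0.376) and GFI1B 0.02 (adjusted p = 0.997), and no gene of the list passed.

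Genes that these factors are known to control make up the last lists. Of 16 tested genes of heme synthesis and globins 5 were higher and 1 was lower, with a median log2 FC of 0.24. UROD, an enzyme of heme synthesis, had 0.93 (SE 0.28, limma adjusted p = 0.0288). SLC25A37, the mitochondrial iron importer, had 0.90 (SE 0.20, limma adjusted p = 0.00577). HBB had 0.31 with an adjusted p of 0.270. The first enzyme of the pathway, ALAS2, which GATA1 activates, had 0.75 (limma adjusted p = 0.0380). HMOX1, which breaks heme down, was the gene called lower, with −0.54.

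Of 18 tested membrane and late erythroid genes 6 were higher, none was lower and 12 did not pass, with a median log2 FC of 0.50 and 17 of the 18 above 0. XPO7, a nuclear exporter of late erythroblasts, had 1.60 (SE 0.24, limma adjusted p = 0.000202). ANK1, the ankyrin of the red cell skeleton, had 1.18 (SE 0.24, limma adjusted p = 0.00348). EPB42, another membrane skeleton gene, had 1.06 (SE 0.29, limma adjusted p = 0.0204). With the brightness covariate the median of this list was 0.10, and XPO7 (1.26, adjusted p = 0.0292) was the gene still called. In the heme and globin list the same covariate gave a median of −0.27, and SLC25A38, a mitochondrial carrier, was called with 0.70. The mean level of the 9 tested reticulocyte and red cell markers ran from 11.21 to 12.80 in DD pigs and from 11.08 to 12.35 in LW pigs. Of them 3 were higher and none was lower, with a median log2 FC of 0.44, which became −0.0014 with the brightness covariate, where 0 of the 9 were called. EPB42 then had 0.06 and ALAS2 −0.04. The part of these markers in the values of KLF1, GATA1 and NFE2 was not tested.

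**Figure D5:**
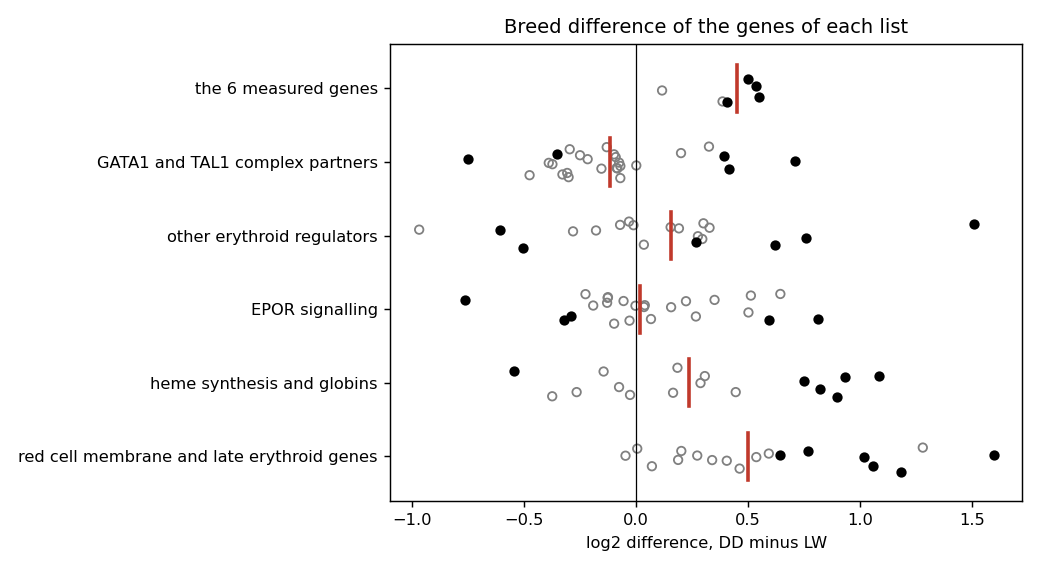
Log2 difference between DD and LW pigs (x axis) for the 6 measured genes and for the genes of the 5 lists (y axis), with filled points where the adjusted p was below 0.05 and a red line at the median of each row. The medians ran from −0.12 for the complex partners to 0.50 for the membrane and late erythroid genes.

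Leaving out single pigs ended calls, while all 6 differences stayed above 0. When each of the 21 pigs was left out in turn, the log2 FC ran from 0.35 to 0.45 for GATA1, 0.47 to 0.68 for KLF1, 0.45 to 0.57 for NFE2, 0.43 to 0.63 for LMO2, 0.29 to 0.47 for BCL11A and 0.05 to 0.18 for EPOR. The number of genes called ran from 0 to 5, while the share of all genes called higher ran from 2.58% without LW_18 to 17.1% without DD_06, and was 3.74% without DD_21 and 5.71% without DD_23. The count of the 6 was 0 without DD_21, without DD_23 and without LW_18, all on chip 3, 1 without DD_08, and 2 without DD_16, DD_19, LW_02, LW_09, LW_22 or LW_24. GATA1 lost its call without DD_21, DD_23, LW_18 or LW_22, with an adjusted p of at most 0.0826. NFE2 lost it without those 4 pigs or DD_08, with at most 0.0714. LMO2 lost it in 12 of the 21 fits, with at most 0.0890, and KLF1 in 16, with at most 0.111. BCL11A passed without DD_06, DD_11 or LW_22.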

How the data were processed

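Total RNA of PAXgene blood from 21 pigs was labelled with Cy3 and hybridized to a one-colour Agilent array on 3 chips, with 3, 4 and 3 DD and 4, 4 and 3 LW arrays. Per the submitters' processing notes the scanner intensity values were extracted with Agilent Feature Extraction 10.7.3.1. The authors deposited these intensities without normalization between arrays, and a log2 matrix after background correction (normexp, offset 0) and quantile normalization. Groups came from the sample labels, siblings and chips from the study's list of animals.

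From the deposited log2 matrix, control probes and the 25% of probes with the lowest mean were removed, and probes of one gene name, with letter case ignored, were averaged. The placeholder name GI was not treated as a gene. R 4.3.3 with limma 3.58.1 (lmFit, duplicateCorrelation on the sow, eBayes) gave the tests, with p-values adjusted by Benjamini and Hochberg's method across the 34393 genes, and the consensus correlation of siblings was −0.11. Probes were fitted in the same way, and a probe removed as dim was taken from a fit without the filter. Values recomputed from the scanner intensities correlated with the deposited ones at 0.998 to 0.999 on each array. Correlations over the 11 litter means used all 86400 permutations within breeds, of which the smallest possible p is 1.16e-05. The fits and the permutation test were tested on simulated data. Figures were drawn with matplotlib 3.10.9.

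The genes named were all 8 members. From each list the text names the 3 called genes with the largest log2 FC in either direction, and for each member the 3 non-member genes most like it. One gene that this rule would name is not reported here. Other list genes, such as JAK2, STAT5A, HBB, ALAS2, MYB, HMOX1, CRKL, VAV1 and SLC25A38, were chosen after their values were seen. The members and lists were chosen with earlier results of these data known. The number of arrays limits the precision. Alternatives changed the starting values, background correction, normalization, filter, probe summary and naming, sow, chip, brightness, variance model and animals. Scanner columns of spot position and morphology were not used.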

Additional observations from a re-analysis of the deposited data

How the results depend on the processing

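The number of genes called, 4 of 6, was 3 to 5 in 12 of the 19 settings other than leaving out a pig. In those 12 the share of all genes called higher ran from 4.87% to 16.5%. That share is given in brackets for the other settings. The number was 2 without the sow block (7.56%), 0 without the chip term (1.84%), 0 without chip 2 (5.6%) and 0 without chip 3 (0.666%). It was 1 with brightness as a covariate (0.957%), 1 with that covariate and without chip 3 (0.515%), and 0 with no scaling between arrays (0.686%). The last 2 settings were chosen after seeing the data. Leaving out each pig gave 0 to 5. The difference changed sign for GATA1 (−0.24), KLF1 (−0.025), BCL11A (−0.13) and EPOR (−0.28) with no scaling, for KLF1 (−0.011) and EPOR (−0.10) with brightness, for both with brightness and without chip 3 (−0.10 and −0.18), and for EPOR without chip 3 (−0.037). BCL11A passed with cyclic loess (0.53, limma adjusted p = 0.0186) and on litter means, among 4 settings. Without the filter on low values 2 rather than 4 probes were called. Over all genes the calls in either direction, 7172 as reported, were 524 without chip 3, 739 with brightness, 398 with both and 1866 without the chip term. They were 2159 to 11304 with a pig left out. With no scaling they were 16546, of which 16310 were lower in DD pigs. Without the chip correction 0 rather than 2 genes passed the adjusted test against brightness, and 3 rather than 0 pairs against each other. Among these pairs r moved little for GATA1 with LMO2, from −0.82 to −0.84, and for KLF1 with EPOR, from 0.81 to 0.82 (adjusted p = 0.0286 and 0.0234 by exact permutation). For GATA1 with BCL11A, which also passed, r went from −0.26 to −0.77 (exact permutation adjusted p = 0.0382). The cause of these changes was not tested. No paired analysis was possible because DD and LW pigs share no numbers. Probes near background limit the EPOR values, and 21 arrays limit all.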

Other observations

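Among the markers of other blood cells, the T cell genes CD3G (log2 FC −0.64, limma adjusted p = 0.00509), CD8A (−0.64, adjusted p = 0.0482), CD3D (−0.58, adjusted p = 0.0148) and BCL11B (−0.51, adjusted p = 0.0254) were lower in DD pigs and 12 of 12 tested lay below 0. With array brightness as a covariate none of the 12 passed. Of 9 neutrophil markers tested 0 passed in limma, and of 11 monocyte markers CD163 was lower (−0.72, adjusted p = 0.0233). The eosinophil marker IL5RA was well above background on 0 of 21 arrays, while GATA2, which the mast cell and basophil list shares with the complex partners, was called higher.

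Spots of the same 60 bases repeated each other more closely where they were bright. The SD of their difference over the arrays was 0.06 for the BCL11A pair and 0.19 for the KLF1 pair, but 0.34 for the EPOR pair, which lay near background. The breed difference of the second EPOR spot was 0.34 (SE 0.25), and that of the first, A_72_P177781, was 0.23 (SE 0.17). The other EPOR probe, A_72_P441474, had 0.0053 (SE 0.14), and no EPOR probe passed the threshold.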
